A study of Rattus norvegicus with 30 samples.

Results

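The regions described here carried a called meDIP-seq peak in 3, 4 or 5 of 30 rat PFC libraries. They were selected on measured values, namely the number of libraries with a called peak, after peaks of all libraries on chromosomes 1 to 20 that overlapped by at least 1 bp had been merged. Of 604866 merged regions, 119594 (19.8%) met this rule and are called members below. Of these, 51912 had a peak in 3 libraries, 38102 in 4 and 29580 in 5.

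The study asked whether prenatal alcohol exposure and prenatal food-related stress change DNAm in the rat brain. DNA came from the PFC of Sprague-Dawley rats on postnatal day 22, and methylated fragments were captured with an antibody and sequenced. The CON group came from dams with free access to a pelleted diet. The PF group came from dams given a liquid control diet in amounts matched to the intake of alcohol-fed dams, and the PAE group from dams given a liquid diet with ethanol. Each group held 10 animals, 5 labelled female and 5 labelled male, from 5 dams that gave 1 animal of each labelled sex, and the 30 libraries were run on 5 sequencing lanes. Filtered fragments per library ranged from 11548314 to 15472634 in CON (median 13600488), from 12571392 to 16555049 in PF (median 13892227) and from 13254266 to 15537001 in PAE (median 14262068).

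DNAm is the addition of a methyl group to cytosine, in mammals mostly where a guanine follows. The antibody used in meDIP captures fragments with several methylated cytosines, so a peak depends both on how many such positions a stretch of DNA has and on how many of them are methylated. In a tissue such as the PFC, which mixes neurons and glia, a weak peak can come from few cells or from few methylated positions per fragment, and these cannot be told apart here. The height of a peak is given as its normalized height, the number of fragments over the summit per 1000000 filtered fragments. A library without a called peak in a region is not a library without methylation there, because coverage under the calling threshold is not in the peak lists.

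Some libraries went against their labels. In 7 libraries, chromosome X held 2.65% to 3.14% of all peaks and chromosome Y only 4 to 11 peaks. The other 23 had 0.774% to 1.15% of their peaks on X and 38 to 87 peaks on Y. On this measure 18 libraries went against their labelled sex, 13 labelled female and 5 labelled male, and they came from 13 of the 15 dams. Labelled sex is therefore used below as a label only, and the fit of single regions, which has it as a term, was repeated without it. Whether the dam and group labels hold was not tested, and if libraries were exchanged the comparisons of groups and litters would be affected as well.

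A further set of 6 libraries stood apart, in the members and outside them. They were chosen after the data were seen, by how strongly a library shared members with some other library. On the sharing ratio explained below, each of the 6 reached at least 1.44 with another library, and the other 24 at most 1.13. They also called the most members. CON C43_F called 31027 members, PAE E2_F 26178, PF PF27_F 25244, CON C45_M 24470, CON C45_F 20294 and CON C41_F 18916, whereas the other 24 libraries called 8218 (PAE E2_M) to 17189 (PF PF26_M). All 6 were run on lanes 7 and 8, which also held 5 other libraries. The median normalized height of the members a library called was 0.779 to 0.858 in the 6 and 0.591 to 0.730 in the other 24. At the regions called in all 30 libraries, which are no members, it was 1.56 to 1.69 in the 6 and 1.14 to 1.42 in the other 24, and the 6 called 151112 to 205637 regions in all and the others 102536 to 159095. Filtered fragments of the 6 ranged from 11548314 in C41_F to 14688610 in E2_F. Fragment size was 244 to 254 bp in the 6 and 229 to 247 bp in the others. The 6 libraries supplied 32.0% of all 456044 calls at members, and 9399 members (7.86%) were called in these libraries alone. The comparisons of libraries below are given with and without them.

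In length and in the height, fold enrichment and q-values of their peaks, members lay between the regions of a single library and the regions of many libraries. These values are tied to the rule and are given as a description. Just outside the rule, regions called in 2 libraries had a median length of 353 bp and a median normalized height of 0.651, and regions called in 6 libraries had 497 bp and 0.721. Just inside it, regions called in 3 libraries had 400 bp and 0.659, and regions called in 5 libraries had 466 bp and 0.715. For comparison, the 11914 regions called in all 30 libraries had a median length of 891 bp and a median height of 1.30. The median fold enrichment of the calls over local background was 3.86 at 3 libraries, 3.99 at 5 and 6.01 at 30. The share of calls with a q-value below 0.01 was 81.1% at 3 libraries, 84.0% at 5 and 98.9% at 30.

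The median member was 427 bp long, the shortest 243 bp and the longest 1896 bp. The largest length class, 300 to below 400 bp, held 44743 members (37.4%), and 1314 members reached 1000 bp. Members below 400 bp were taller than longer ones, with a median height of 0.759 below 300 bp and 0.725 from 300 to below 400 bp. Above that, height did not fall steadily with length, with 0.659 from 400 to below 500 bp, 0.644 to below 700 bp, 0.651 to below 1000 bp and 0.659 from 1000 bp. The median raw pileup of a member was 9.5 fragments, and 5% of members had a median pileup of 15.5 or more. Within a member, the highest of its called heights was a median of 1.55 times the lowest.

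The calls of a member mostly lay on the same stretch of DNA. Peaks were merged because they overlapped, so the values here are tied to the rule and are given as a description. In 112361 members (94.0%) at least 1 base was under the peak of every library that called the region. The summits were spread over a median of 96 bp, and 61834 members (51.7%) had all summits within 100 bp. The median peak covered 72.1% of its member. Spread grew with the number of calls, from a median of 77 bp at 3 libraries to 129 bp at 5. More calls and longer regions leave more room for spread, so this too is a description.

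By group, CON libraries supplied 37.7% of the calls at members, PF libraries 32.3% and PAE libraries 30.0%. The calls of 51118 members (42.7%) fell in all 3 groups, those of 62187 (52.0%) in 2 groups and those of 6289 (5.26%) in a single group. Among members called in 3 libraries, the most frequent split was 1 library of each group, with 12525 members (24.1%). All calls fell in CON in 3024 members, in PF in 1834 and in PAE in 1431. Over all 352026 regions called in 3 or more libraries the share with all calls in CON was 0.863%, in PF 0.524% and in PAE 0.408%. Nearly all of those regions were members, since the more libraries call a region the less often they all belong to a single group. Of the members with all calls in CON, 201 had no call from the 6 libraries above, 1299 of those in PF and 1017 of those in PAE. These counts are not to be set against each other, since 6 CON libraries but 9 PF and 9 PAE libraries could supply them.

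The number of members called per animal did not separate the groups. It ranged from 10840 to 31027 in CON (median 14687), from 8999 to 25244 in PF (median 14061) and from 8218 to 26178 in PAE (median 13412), so the 3 ranges overlapped. The mean was 17201 ± 6515 in CON, 14723 ± 4342 in PF and 13681 ± 5325 in PAE (SD, n = 10 each). The difference between PAE and CON was -3520 (two-sided permutation test, Benjamini-Hochberg adjusted p = 0.506 over 3 contrasts), that between PAE and PF was -1042 (adjusted p = 0.638) and that between PF and CON was -2478 (adjusted p = 0.506). The dams were treated, and with means of littermates, 5 against 5 dams, the differences were the same. The adjusted p-values were then 0.44, 0.611 and 0.44 (permutation test). With 1 animal left out, the difference between PAE and PF ran from -2430 (without E2_F) to 127 (without PF27_F). It ran from -4908 to -1984 for PAE and CON and from -3647 to -942 for PF and CON. Without the 6 libraries the means were 12883 ± 1653 in CON (SD, n = 6), 13554 ± 2415 in PF and 12292 ± 3195 in PAE (SD, n = 9 each), and the differences were -591 for PAE and CON, -1261 for PAE and PF and, with changed sign, 670 for PF and CON (permutation test, adjusted p = 0.683 each). Libraries labelled female called 16404 ± 6619 members and libraries labelled male 13999 ± 3924 (SD, n = 15 each), a difference of 2405 (permutation test, p = 0.241) that was -811 without the 6 libraries (permutation test, p = 0.451). Littermates were not paired in this comparison.

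The heights of the called members were also within the spread between animals. The median normalized height per animal averaged 0.715 ± 0.0874 in CON, 0.672 ± 0.0511 in PF and 0.665 ± 0.0663 in PAE (SD, n = 10 each). The difference between PAE and CON was -0.0498 (permutation test, adjusted p = 0.296), that between PAE and PF -0.00720 (permutation test, adjusted p = 0.789) and that between PF and CON -0.0426 (permutation test, adjusted p = 0.296). With the 6 libraries left out they were -0.00484, -0.0104 and 0.00555 (permutation test, adjusted p = 0.818 each), so PAE was still below CON by a smaller difference and PF was no longer below CON. Without scaling to fragments the mean of the animals' median pileups was the same in the 3 groups.

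Lanes differed more than groups in the number of members. Libraries on lane 4 called 8224 to 13980 members, those on lane 5 called 8999 to 14281, on lane 6 9570 to 16379, on lane 7 15560 to 20294 and on lane 8 8218 to 31027. Lane accounted for 50.9% of the variance between libraries (permutation test of the between-lane sum of squares, p = 0.0011, n = 30). Without the 6 libraries the share was 26.2% (permutation test, p = 0.194). The lanes did not hold the groups evenly, since lane 4 had no PF library and lane 7 no PAE library, so lane and group cannot be fully told apart. With values centred by lane and labels permuted within lanes, the differences in members were -3365 between PAE and CON, -1508 between PAE and PF and -863 between PF and CON (permutation test, adjusted p = 0.542 each).

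The number of members a library called followed the number of its other regions. Against the regions called in 6 or more libraries, which hold no member, Pearson's r was 0.942 and Spearman's rho 0.927 over 30 libraries (permutation test, adjusted p = 2e-05 each, over 2 relations). Without CON C43_F and PAE E2_F, the libraries farthest from the median, r was 0.917, and without the 6 libraries it was 0.929. Within lanes of 6 or more libraries r was 0.796 on lane 5, 0.919 on lane 6 and 0.989 on lane 8, whereas lanes 4 and 7 held too few. The relation with filtered fragments was weaker, with r = -0.329 (permutation test, adjusted p = 0.0769) and rho = -0.283 (permutation test, adjusted p = 0.129). It was -0.342 without PF PF27_M and CON C41_F and -0.0801, 0.0915 and -0.0645 on lanes 5, 6 and 8. The relation was near 0 once the 6 libraries were left out (r = -0.0378, permutation test, p = 0.86). Members made up 7.63% (PAE E2_M) to 15.1% (CON C43_F) of the regions of a library.

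Which libraries called the same members was compared with a sharing ratio, the number of members called by both libraries of a pair divided by the number given by the product of their sizes over all members. The mean over all 435 pairs was 0.821, under 1 because a member has at most 5 calls. The 6 libraries were chosen by this ratio, so their values are a description. The 15 pairs within them had ratios of 1.38 to 1.48, with the highest between PAE E2_F and CON C45_M, which share neither group nor dam. The 276 pairs among the other 24 libraries had ratios of 0.782 to 1.13, and pairs with 1 library from each side had 0.520 to 0.700. The most frequent set of 3 libraries, with 447 members, was CON C43_F, PAE E2_F and PF PF27_F, all of lane 8. Among sets with none of the 6 libraries the most frequent had 33 members.

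Littermates did not share more members than other animals of their group. The mean ratio of the 15 littermate pairs was 0.847, against 0.836 for pairs of a labelled female and a labelled male of different dams of the same group, a difference of 0.0112 (exact permutation test over all 1728000 assignments of labelled males to dams within groups, p = 0.985). The ratios ran from 0.550 in the litter of dam C41 to 1.41 in that of C45, both of whose libraries belong to the 6, while the litters with 1 library among the 6 (C41, C43, E2 and PF27) had 0.550 to 0.626. Without dam C45 the difference was -0.0376 (exact permutation test, p = 0.0236), and without the 6 libraries it was -0.0421 over 10 dams (exact permutation test, p = 0.0347). The sign also changed without dam C44 (-0.00851; exact permutation test, p = 0.962) or C46 (-0.0109; exact permutation test, p = 0.945), so the difference has no stable direction. Over the 13 dams whose libraries ran on different lanes it was 0.0392 (exact permutation test, p = 0.928). Over the 1206 members in the tallest 1%, a set chosen after the data were seen, littermates had a ratio of 1.23 and other pairs 1.11 (exact permutation test, p = 0.394). Most members, 95874 (80.2%), had no dam with both libraries called, 22970 had 1 such dam and 750 had 2.

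Libraries of the same lane shared more members than libraries of different lanes. The mean ratio was 0.903 over 75 pairs of the same lane and 0.803 over 345 pairs of different lanes, pairs of the same dam left out, a difference of 0.101 (permutation test, p = 0.00232). Without the 6 libraries the means were 0.915 and 0.907, a difference of 0.00770 (permutation test, p = 0.357).

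For groups the difference was of similar size with and without the 6 libraries, smaller than that for lanes with them and larger without them. Pairs of the same group had a mean ratio of 0.839 (120 pairs) and pairs of different groups 0.813 (300 pairs), a difference of 0.0263 (permutation test of group labels over 15 dams, p = 0.169). Without the 6 libraries the difference was 0.0259, with means of 0.927 over 77 pairs and 0.901 over 189 pairs (permutation test, p = 0.00154). It passed the threshold of 0.05 only without these libraries, an alternative chosen after the data were seen. The part of lane in it was not tested.

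Members were spread over all chromosomes in proportion to the other regions. They made up 18.8% of the regions of chromosome 12 and 20.2% of those of chromosome 6, the lowest and highest values of the 20 chromosomes. Counted to the last peak of each chromosome, there were 40.1 members per Mb on chromosome 2 and 54.5 on chromosome 10. Along the chromosomes the share of regions that were members differed little, from 19.1% to 20.2% when each chromosome was divided into 10 equal stretches, and the stretches at the far end held 11.4% of the members and 11.5% of all regions. In the 2597 windows of 1 Mb with at least 50 regions, the share had a median of 19.7% and lay between 14.3% and 24.4% in the middle 90% of windows. The window with the most members, chromosome 8 from 66 to 67 Mb, held 98 of its 369 regions. On chromosome X, outside the rule, 19.2% of 11959 regions were called in 3 to 5 libraries.

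The distance to more widely called regions was similar for members and for regions of 1 or 6 libraries, and shorter than for regions of many libraries. The nearest region called in 6 or more libraries was a median of 3063 bp away from a member, 3059 bp from a region of a single library and 3124 bp from a region of 6 libraries, but 3595 bp over all regions of 6 or more libraries and 4857.5 bp from a region of all 30. For the tallest 1% of members the median was 1611 bp. The nearest other member was a median of 6174 bp away.

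The 1206 tallest members had heights from 1.44 to 7.03, with a median of 1.58 and a median length of 368.5 bp. The 6 libraries that stand apart each called 355 to 576 of them, and the other 24 libraries 44 to 103 each. In 445 of these members (36.9%) every call came from the 6 libraries, and in 160 (13.3%) none did. Heights of 3 or more were rare, with 29 members.

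Few calls of the 5 tallest members came from the 6 libraries. The tallest, chr14:17504393-17504706 (Rn6), had heights of 7.37 in CON C44_F, 6.69 in PF PF24_F, 6.65 in PF PF26_F and 11.1 in PF PF28_M, from raw pileups of 91 to 152 fragments, and no called peak in the other 26 libraries. These 4 animals came from 4 dams and 4 lanes, and none of their littermates called the region. Its highest fold enrichment was 23.6. On the log2 scale of the fit the PAE minus PF difference was -1.27 ± 0.61 (SE, limma adjusted p = 0.988), the PF minus CON difference 1.08 ± 0.63 (SE, limma adjusted p = 0.778) and the PAE minus CON difference -0.19 ± 0.61 (SE, limma adjusted p = 0.957).

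At chr1:180910108-180910407 the heights were 6.98 in CON C43_F, 6.88 in CON C46_F, 5.88 in CON C44_M, 6.34 in PF PF27_M and 5.71 in PF PF28_M. No PAE library called it. Here the highest fold enrichment over local background was 2.03, despite pileups of 78 to 105 fragments, so these peaks stood on high local coverage, and libraries without a call may have had it as well.

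At chr3:134026742-134027150 the heights were 5.28 in PAE E1_F, 7.16 in PF PF27_F, 6.59 in CON C43_M and 5.69 in PF PF26_M, with a highest fold enrichment of 28.1. The same 4 libraries, and no others, called 3 further members. The tallest of them, chr1:180829436-180829938, on another chromosome, had heights of 3.32 or more and a median of 4.30, and it is named after its values were seen. It lies close to chr1:180910108-180910407, the member above with high local coverage. Its fold enrichment was not examined, so libraries without a call may have had high coverage there as well. These animals belong to 4 dams, 4 lanes and all 3 groups.

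At chr9:113521433-113521791 the heights were 7.55 in CON C45_F, 6.62 in PF PF24_F, 4.95 in PAE E1_M and 1.88 in PAE E9_F. At chr3:52065665-52065917 they were 5.88 in PAE E1_F, 4.50 in its littermate E1_M, 5.92 in PF PF26_F and 5.26 in PF PF27_M. Its highest fold enrichment was 3.79 at pileups of 61 to 87 fragments. Libraries without a call may have had high coverage here as well, but their coverage is not known. The litter of dam E1 is the complete litter among the calls of this region.

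Members with all 5 calls in a single group numbered 85 in CON, 70 in PF and 36 in PAE (0.287%, 0.237% and 0.122% of the members with 5 calls), with 4 of the 6 libraries that stand apart in CON. The tallest of each are given here as a description. In CON, chr6:132403319-132403939 had heights of 1.56 in C41_F, 0.935 in C43_F, 1.46 in C45_F, 0.716 in C46_F and 1.36 in C45_M, and 4 of these libraries are among the 6. In PF, chr2:128795505-128795832 had 1.70 in PF24_F, 2.12 in PF26_F, 2.05 in PF22_M, 2.14 in PF26_M and 2.42 in PF28_M, none of them among the 6. Its highest fold enrichment was 2.60 at pileups of 26 to 33 fragments, so libraries without a call may have had high coverage there too. In PAE, chr20:32549777-32550089 had 0.905 in E1_F, 1.29 in E3_F, 1.17 in E6_F, 0.886 in E1_M and 1.16 in E6_M, with both littermates of dams E1 and E6.

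Members whose 4 calls were both littermates of 2 dams numbered 149, or 0.391% of the members called in 4 libraries. The tallest, chr19:391646-391936, had heights of 2.65 in CON C46_F and 1.55 in C46_M, and of 1.44 in PF PF24_F and 2.48 in PF24_M, and these libraries were run on 3 lanes. At chr4:88162530-88162858 the heights were 1.89 in CON C45_F and 1.69 in C45_M, and 1.51 in PF PF27_F and 1.03 in PF27_M. At chr10:78652860-78653208 they were 1.63 in CON C45_F, 1.44 in C45_M, 1.22 in C46_F and 1.68 in C46_M.

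All 5 calls fell on a single lane in 21 members (0.0710% of the members with 5 calls), 19 of them on lane 8, which holds 4 of the 6 libraries that stand apart. The tallest, chr14:14590773-14591118, had heights of 1.80 in CON C43_F, 1.57 in PAE E2_F, 1.83 in PF PF27_F, 1.12 in CON C45_M and 1.24 in PAE E2_M, and all but the last are among the 6.

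The 3 longest members lay on both sides of the median member in height, with median heights of 0.883, 0.520 and 0.657. The longest, chr2:43570247-43572142 (1896 bp), was called in 5 of the 6 libraries, with heights of 0.693 in CON C41_F, 1.01 in C43_F, 0.858 in C45_F, 0.883 in C45_M and 0.885 in PAE E2_F. At chr10:25429457-25431272 (1816 bp) the 5 heights ran from 0.414 in PF PF22_F to 0.591 in PAE E1_M, with a median of 0.520. At chr2:204166706-204168488 (1783 bp) they ran from 0.477 in PAE E2_F to 0.803 in CON C45_M, with a median of 0.657.

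To ask whether DNAm differed between groups at single members, log2 heights of all 352026 regions called in 3 or more libraries were fitted with limma, with group, labelled sex and lane as terms. In no contrast did a member pass an adjusted p-value of 0.05. The smallest limma p-value of a member was 2.63e-05, for PAE versus CON (limma adjusted p = 0.661). Whether the fit could pass a member with a true difference was not tested, so the absence of such members does not show that DNAm was equal. Over all tested regions 0.000284% passed for PAE versus CON, which is 1 region outside the members, and 0% for PAE versus PF and for PF versus CON. The study's own list of differentially methylated regions, at a false discovery rate below 0.05, holds 593 of the 119594 members. That list rests on reads counted in each library. The fit here rests on heights of called peaks, with a floor for libraries without one, so it does not test the listed differences. At an unadjusted p-value below 0.05 there were 8192 members for PAE versus CON (6.85%), beside 7.37% of all tested regions, with 1796 higher and 6396 lower in PAE. For PAE versus PF there were 5391 (4.51%), beside 4.46% of all, with 2124 higher and 3267 lower, and for PF versus CON 8249 (6.90%), beside 6.46%, with 2967 higher and 5282 lower. Lower values also prevailed over all tested regions, where the PAE versus CON contrast had 4723 higher and 21234 lower, PAE versus PF 5298 and 10386, and PF versus CON 7263 and 15471. With all libraries the members' shares were near those of all regions. Leaving out the 6 libraries gave 4196 (3.51%, beside 4.75% of all tested regions) for PAE versus CON, 3597 (3.01%, beside 4.29%) for PAE versus PF and 6104 (5.10%, beside 5.07%) for PF versus CON, with 9399 members left without any call. Their directions were 1550 higher and 2646 lower, 2727 higher and 870 lower, and 740 higher and 5364 lower, so that for PAE versus PF the direction turned. Directions over all tested regions were not counted in this fit, so whether these are particular to members was not tested. Without labelled sex in the fit no member passed either, and 8122 (6.79%, beside 7.36% of all tested regions), 5542 (4.63%, beside 4.50%) and 7958 (6.65%, beside 6.17%) were below an unadjusted 0.05. Fisher's exact test of called against not called libraries could pass no member after adjustment, because the smallest p-value it can give to a member, with 5 calls in 1 group and none in the other, is 0.0325. Its 121, 106 and 155 members below an unadjusted 0.05 (0.101%, 0.0886% and 0.130%, beside 0.864%, 0.747% and 0.786% of all tested regions) are the members with all 5 calls in either group of the contrast.

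The median log2 difference over the members was -0.0229 for PAE versus CON, -0.00877 for PAE versus PF and -0.0165 for PF versus CON, beside -0.0540, -0.0229 and -0.0312 over all tested regions. Most animals entered at the floor of 0.438, and whether this makes the differences too small or too large cannot be told, since the coverage of animals without a peak is not known. The member with the smallest p-value for PAE versus CON, chr14:40580595-40580908, was called only in CON, with heights of 1.51 in C43_F, 1.37 in C41_M, 1.85 in C45_M and 1.23 in C46_M. Of these libraries, C43_F and C45_M are among the 6. The PAE minus CON difference was -0.99 ± 0.20 (SE, limma adjusted p = 0.661), and the same member had the smallest p-value for PF versus CON, with -0.91 ± 0.21 (SE, limma adjusted p = 0.773). For PAE versus PF it was chr4:159339523-159339962, called only in PF, with heights of 0.828 in PF22_F, 0.918 in PF24_F, 0.795 in PF27_F, 0.712 in PF26_M and 0.846 in PF27_M. Of these libraries, PF27_F is among the 6. The PAE minus PF difference was -0.53 ± 0.13 (SE, limma adjusted p = 0.988).

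Gene positions are known here for the members that are also on the published list of differentially methylated regions, which has 1462 regions and was drawn up from these same animals. That list is used for positions and genes only and is no independent evidence of a group difference. It holds 593 of the 119594 members, beside 821 of the 232432 regions called in 6 or more libraries. Of the 593, 199 (33.6%) have a gene, beside 26 of the 48 listed regions called in 2 libraries (54.2%) and 327 of the 821 (39.8%). The share with a gene thus did not rise or fall steadily with the number of calls. Of the 199, 144 lie in introns alone, 40 touch an exon and 9 lie at or within the stretch before a transcription start. Camta1 and Ddhd1 have 2 such members each.

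The genes below were chosen because the published results text names them, so they are examples and say nothing about which kinds of genes the members hold. Camta1, a calmodulin-binding transcription activator, has 2 intronic members with different libraries. At chr5:168248504-168248869 the heights were 1.44 in CON C43_F, 0.858 in CON C45_F, 0.749 in PAE E2_F and 1.83 in PF PF27_F, all among the 6 libraries. At chr5:168317172-168317578 they were 0.756 in PAE E6_F, 0.644 in its littermate E6_M, 0.655 in PF PF24_F and 0.583 in its littermate PF24_M, so the calls made up 2 complete litters and none was among the 6. Itpr2, an endoplasmic calcium channel opened by inositol trisphosphate, has an intronic member at chr4:180681932-180682426, with 0.791 in CON C43_F, 0.716 in CON C46_F and 1.24 in PF PF26_F. Dgki, a diacylglycerol kinase, has an intronic member at chr4:64819709-64820106, with 0.791 in CON C43_F, 0.601 in CON C45_F and 0.430 in PAE E9_M.

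Kcnq1 and Kcnn1 have a member each. In the intronic member of Kcnq1, which codes for a voltage-gated channel, at chr1:216603938-216604530, heights were 0.866 in CON C41_F, 0.791 in C43_F, 0.722 in C45_M, 0.840 in C46_M and 0.477 in PF PF27_F. All but C46_M are among the 6. The PAE minus CON difference there was -0.40 ± 0.12 (SE, limma adjusted p = 0.661), the PF minus CON difference -0.41 ± 0.13 (SE, limma adjusted p = 0.773) and the PAE minus PF difference 0.02 ± 0.12 (SE, limma adjusted p = 0.999). In the exonic member of Kcnn1, which codes for a small-conductance channel opened by calcium, at chr16:20347730-20348041, heights were 0.944 in CON C45_F, 0.856 in CON C43_M, 0.512 in PF PF26_F and 0.604 in PF PF27_M.

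Magi1, a scaffold protein of cell junctions, has an intronic member at chr4:126003548-126003914 with heights of 1.04 in CON C41_F, 0.791 in CON C43_F, 0.803 in CON C45_M and 1.03 in PF PF27_F, all among the 6. Cdh13, a cadherin anchored to the membrane by a lipid, has an intronic member at chr19:51863855-51864169 with 0.817 in PAE E2_F, 0.621 in PF PF22_F and 0.804 in PF PF26_F. Gpc5, a heparan sulfate proteoglycan, has an intronic member at chr15:100484348-100484637 with 0.601 in CON C45_F, 0.562 in its littermate C45_M and 0.377 in PAE E1_F. The intronic member of Tmem178b at chr4:67694314-67694711 had 0.648 in CON C43_F, 0.636 in PF PF27_F, 0.725 in its littermate PF27_M and 0.356 in PF PF26_M.

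Nr3c1 codes for the glucocorticoid receptor, through which cortical cells respond to stress hormones. Its intronic member at chr18:32262198-32262579 had heights of 0.576 in CON C43_F, 0.772 in CON C45_F, 0.562 in CON C45_M and 0.477 in PAE E2_F, all among the 6. Adarb2, a brain-expressed relative of the RNA-editing adenosine deaminases, has an intronic member at chr17:58378700-58379079 with 1.02 in PF PF26_F, 0.659 in CON C43_M, 0.716 in PAE E9_M and 1.17 in PF PF22_M, none among the 6. Over the 12 members of these 11 genes the limma adjusted p-values of the 3 contrasts ran from 0.661 to 1. All 12 are on the published list of differentially methylated regions, which rests on read counts and not on called heights.

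Of the 9 listed members near a transcription start, the one of S100a3, a calcium-binding protein, spans the start itself. At chr2:189992995-189993459 it had heights of 0.953 in CON C41_F, 0.863 in CON C43_F and 0.562 in CON C45_M. The same 3 libraries, all among the 6, called the member before the start of Suv39h2, a histone H3 lysine methyltransferase, at chr17:78762065-78762378, with 1.04, 0.791 and 0.803. The member before the start of Irf4, a transcription factor best known from lymphocytes, at chr17:34906150-34906484, was called in PAE E3_F (0.501), PAE E6_F (0.619) and PAE E2_M (0.730), none among the 6. These 3 members are named after their values were seen. Of the 9 members, 4 had all calls in a single group, beside 5.26% of all members, but the list they come from was chosen for group differences in these animals, so this says nothing about promoters. Of these 4, 2 were called in CON and 2 in PAE (Irf4 and Doc2b), and the other 5 of the 9 had calls in more than 1 group (Rnf7, Clmn, Tcp1 and Mrpl18, Flvcr2, and Kcnab2 and Nphp4). The PAE minus CON difference was -0.24 ± 0.11 at S100a3 (SE, limma adjusted p = 0.674), -0.30 ± 0.13 at Suv39h2 (SE, limma adjusted p = 0.663) and 0.16 ± 0.07 at Irf4 (SE, limma adjusted p = 0.666). At S100a3 and Suv39h2 the PF minus CON difference was of like size, -0.26 ± 0.12 and -0.31 ± 0.13 (SE, limma adjusted p = 0.773 each).

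The promoters of these 3 genes are printed because they differ in the number of CG pairs, the positions that meDIP depends on. The members of Irf4 and Suv39h2 were annotated to a stretch before the start that is longer than the 250 bases printed, and may lie outside these, so the CG counts describe the promoters and not the members. The sequences are from RefSeq (GRCr8, another assembly than Rn6, so the members were not placed on them), from 250 bases before to 50 bases after the start, 5′ to 3′ on the strand of the gene, with each CG in capitals. The letters CG read the same on both strands. S100a3 has 7 CG on the plus strand (chr2:178384263-178384562), and 52.4% of 33469 promoters of this length have as few. Irf4 has 16 on the minus strand (chr17:33948681-33948980), and 30.5% have as many. Suv39h2 has 31 on the plus strand (chr17:79665217-79665516), and 9.31% have as many. Promoters were found for 10 of the 11 gene symbols of the 9 members, and Doc2b had none.
S100a3: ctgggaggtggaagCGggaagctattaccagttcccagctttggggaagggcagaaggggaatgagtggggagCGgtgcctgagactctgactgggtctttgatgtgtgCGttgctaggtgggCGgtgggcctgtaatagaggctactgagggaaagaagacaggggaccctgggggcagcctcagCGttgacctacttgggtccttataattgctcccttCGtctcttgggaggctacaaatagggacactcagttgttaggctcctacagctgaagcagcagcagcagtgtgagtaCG
Irf4: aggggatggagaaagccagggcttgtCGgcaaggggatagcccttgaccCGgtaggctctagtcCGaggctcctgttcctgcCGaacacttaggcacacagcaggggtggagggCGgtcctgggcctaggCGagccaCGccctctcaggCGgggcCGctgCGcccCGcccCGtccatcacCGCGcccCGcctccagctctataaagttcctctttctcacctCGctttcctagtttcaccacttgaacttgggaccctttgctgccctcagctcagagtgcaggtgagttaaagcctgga
Suv39h2: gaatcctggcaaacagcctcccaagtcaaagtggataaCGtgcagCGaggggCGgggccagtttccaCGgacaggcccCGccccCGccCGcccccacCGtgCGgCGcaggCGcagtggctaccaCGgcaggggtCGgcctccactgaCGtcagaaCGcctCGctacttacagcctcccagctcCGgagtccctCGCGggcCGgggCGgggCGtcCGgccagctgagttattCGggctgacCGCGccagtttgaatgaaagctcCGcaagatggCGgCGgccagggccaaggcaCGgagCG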

How the data were processed

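As described by the authors, BWA was used for alignment to Rn6 and SAMtools for filtering of duplicate, unpaired and poorly mapped reads. Peaks were then called per library with MACS2 (2.1.4 in the file headers), paired-end, at a q-value of 0.05 and without a control. The deposited signal of a peak is its pileup, the unscaled fragment coverage at its summit. The deposited −log10 q-value set the stricter threshold, and the deposited fold enrichment, a ratio to local background, is quoted for single regions. The authors' later read counts with DiffBind were not used here.

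The 4671206 rows were joined to 4405496 peaks, keeping the highest pileup of a peak with several summits. Heights were scaled to 1000000 filtered fragments. For limma 3.58.1 (R 4.3.3, trended prior, group, labelled sex and lane), libraries without a peak were set to a floor of 0.438, the highest of the libraries' lowest heights, and called heights below it were raised to it, and the Benjamini-Hochberg adjustment took in all 352026 regions of the fit. Values per animal were compared with two-sided permutation tests of 100000 resamples, run in Python 3.11.15 (scipy 1.17.1, pandas 2.3.3, numpy 2.4.6). A p-value of 1e-05 is the smallest these can give. The permutation tests of differences, lanes, litters and correlations and the limma fit were checked on simulated data with known answers. How large a difference the fit could find at members, which have at most 5 calls, was not tested.

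Named regions are the 5 tallest members, the tallest with all 5 calls in each group, the 3 tallest with 4 calls in 2 complete litters, the tallest with 5 calls on a single lane, the 3 longest, the smallest p-value per contrast, and members listed with a gene that the published results text names. The members of S100a3, Suv39h2 and Irf4 and chr1:180829436-180829938 were added once their values were known. Alternatives tried were q-values below 0.01, peaks covering at least 50% of a region, merging over 100 bp, scaffolds included, percent of a library's regions, permutation within lanes, dam means, 3 or 5 libraries only, unscaled pileup, the Jaccard index, subsets of dams, no lane term, a pseudocount of 0.1, regions of 2 or more libraries, Fisher's exact test, and each animal or dam left out. Leaving out the 6 libraries, taking the tallest 1% and leaving labelled sex out of the fit were added after seeing the data. The members and lists were chosen with earlier results of these data known. No genes were assigned by position, because the gene annotation available was for a different assembly.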

Additional observations from a re-analysis of the deposited data

Results flagged for a closer look

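Of 35 groups of 5 to 10 values examined for a value far from the rest, 8 had one, where chance alone gives about 1 in 20 for a single group. The groups share libraries, and all but that of PF28_F concern PF27_F, E2_F or their litters. Their number can therefore not be set against chance. Among PF animals, PF27_F called 25244 members and the next animal 17189, and members made up 13.9% of its regions. Among PAE animals, E2_F called 26178 members and the next 16408, members made up 14.0% of its regions, and the median length of its members was 448 bp, with 434 bp in the next. On lane 5, PF PF28_F called 8999 members and the next lowest library 12211. Among PF litters, that of PF27 had the lowest sharing ratio, 0.616 (next lowest 0.872), and among PAE litters that of E2 had the lowest, 0.617 (next lowest 0.846). Both litters have 1 library among the 6 that stand apart.

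Peaks on the sex chromosomes, which are not used in the comparisons, went against the labelled sex in 18 libraries. The effect of group on the number of members and on their median height did not differ between the labelled sexes beyond the spread between animals, with an adjusted p-value of 0.975 in each of 6 permutation tests of the difference.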

How the results depend on the processing

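Of 135 alternative values of results with a sign, 120 kept it and stayed on the same side of the threshold. The count of members that differ was 0 under every alternative run for it, among them Fisher's exact test, which could pass none. Whether the limma fits could pass a member was not tested. Not run for this count were peaks covering 50% of a region, merging over 100 bp, scaffolds, and single animals or dams left out. Without the 6 libraries that stand apart, the difference in members between PAE and CON went from -3520 to -591, that between PF and CON changed sign to 670, that between labelled females and males to -811, and that in height between PF and CON to 0.00555, while the height difference between PAE and CON went from -0.0498 to -0.00484. The share of variance between lanes fell to 26.2%, and the lane difference in sharing to 0.00770, both no longer below 0.05. The littermate difference changed sign to -0.0421 and the group difference in sharing, 0.0259, came below 0.05. The cause of these changes was not tested. Permuted within lanes, the difference in members between PF and CON went from -2478 to -863. With unscaled pileup the height difference was 0 for PAE versus CON, 0 for PAE versus PF and 0 for PF versus CON. The littermate difference was -0.00667 for regions of 3 libraries only and 0.0392 without the dams whose libraries ran on a single lane. Leaving out 1 animal gave -4908 to -1984 for PAE versus CON, -3647 to -942 for PF versus CON, and -2430 (without E2_F) to 127 (without PF27_F) for PAE versus PF. Leaving out 1 dam gave -0.0376 (C45) to 0.0271 (E9) for littermates, with -0.00851 without C44 and -0.0109 without C46. The number of members was 110902 with q-values below 0.01 and 137767 when peaks had to cover 50% of a region. Leaving out the dams with a library against its labelled sex left 2 dams of different groups, so that alternative could not be computed.

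These results rest on called peaks, so members whose coverage lay just under the calling threshold in further libraries count as called in few. The 30 animals came from 15 dams, and labels of sex that the sex chromosomes contradict leave the sex comparison without a firm basis. Lane, group and the 6 libraries that stand apart overlap in part. Animals without a peak entered the fit at a floor, and the direction of the error this makes is not known. What sets the 6 libraries apart was not tested.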
